A study of Homo sapiens with 9 samples.

Results

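The 3 control libraries of VCaP cells, out of 9 libraries in the series, were described on their own as a reference transcriptome. They were chosen by their sample titles, and no measured value was used to choose them. VCaP is an established prostate cancer cell line that carries the *TMPRSS2*–*ERG* gene fusion and depends on androgen signalling. The labels give the control cells as WT in genotype and as epithelial. They describe a reverse transfection with 100 pmol of siRNA and a harvest after 72 h, so all 9 libraries came from transfected cells of 1 line and not from untouched cultures. From 1.3 µg of total RNA, stranded total RNA libraries were sequenced as read pairs and counted per gene. The study describes the replicates of its knockdown experiments as biological. The labels do not say whether the 3 control libraries came from separate cultures, so part of the spread between them may be technical. No group was compared with another, and no test was run.

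The secretory, or luminal, cells of the prostate gland respond to androgen, which switches on genes such as the kallikrein proteases. FOXA1, HOXB13 and GATA2 are transcription factors that set this androgen response in the luminal cell. In many prostate tumours a rearrangement on chromosome 21 joins the androgen-driven start of *TMPRSS2* to *ERG*, an ETS factor that is otherwise typical of blood vessels. Some advanced tumours take on genes of neuroendocrine cells, which store and release peptide hormones.

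Levels are given in transcripts per 1000000 (TPM), the counts of a gene divided by its exon length and scaled to that total in each library. A gene is referred to as expressed where it reached 1 TPM in all 3 libraries, and bracketed errors are SD over the 3 libraries (n = 3). The control libraries held 11649811, 14106584 and 26760578 counts. With 14735, 14910 and 15361 genes at 1 count or more, the deepest library listed the most genes. After thinning to the total of the shallowest library the numbers were 14735, 14741 and 14755. Of 19918 genes, 11573 were expressed (58.1%), and 3992 had no count in any of the 3 libraries. Across genes, the Spearman correlation between pairs of libraries was 0.988 to 0.989, which describes genes that share depth and length and not independent replicates.

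The marker genes of the line were present. *KLK2*, *KLK4*, *TMPRSS2*, *FOXA1*, *HOXB13* and *ERG* were all expressed in each library, whereas most markers of basal, vascular and immune cells were at or near 0. One marker stood low: *KLK3*, which encodes prostate-specific antigen (PSA), had 17.3, 20.3 and 20.1 TPM and was ranked 6505th. *ERG* had 100.0, 96.0 and 101.9 TPM, and *TMPRSS2* had 216.2, 213.6 and 213.4 TPM. All 3 markers named for the line were thus detected with at least 136 counts in every library.

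**Figure D1:**
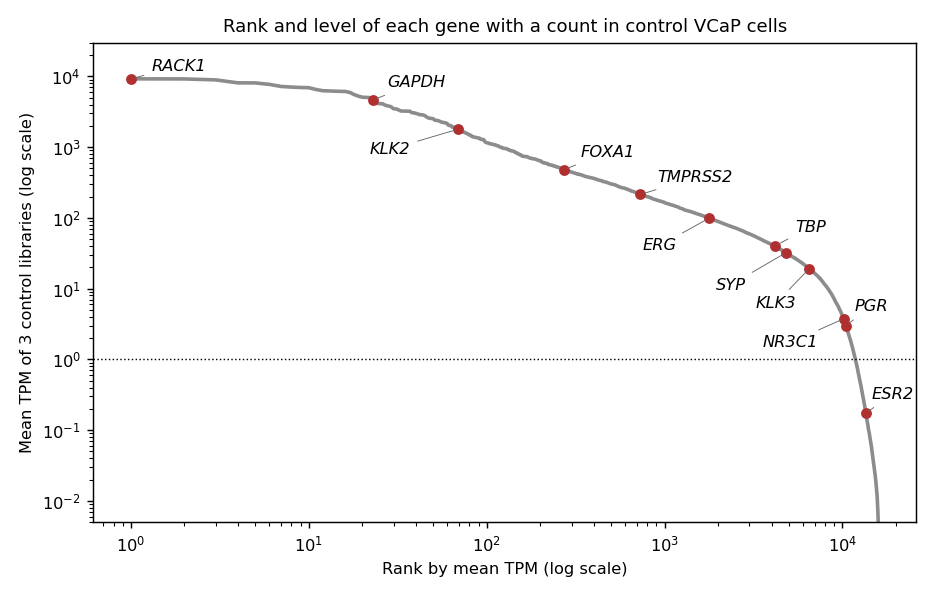
Mean TPM of each gene with at least 1 count against its rank, both on log scales. Red points mark named genes and the dotted line marks 1 TPM. *RACK1* is first with 9247 TPM, *KLK2* is 69th with 1793 TPM, *ERG* is 1781st with 99.3 TPM, and *KLK3* lies at 19.2 TPM, below *TBP* with 39.9 TPM.

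To examine how the transcriptome was divided among genes, all genes were ranked by mean TPM. Only 398 genes, 3.44% of those expressed, together held 50% of the summed TPM, and 4378 genes held 90%. At the top, 0.582% of genes exceeded 1000 TPM in each library and 1705 genes exceeded 100 TPM. Genes with a numbered ribosomal protein symbol took 18 of the first 20 places and 59 of the first 100. They held between 23.8% and 24.2% of the TPM of a library. *RPSA*, the 45th gene, and *FAU*, the 57th, also encode ribosomal proteins but are not in these counts. *RACK1*, which encodes a scaffold protein of the small ribosomal subunit, led with 9204, 9341 and 9198 TPM. It was followed by *RPLP1* with a mean of 9217 TPM and *RPS6* with 8934 TPM. The order within this group was not settled, because *RPLP1* lay above *RACK1* in replicate 2. *EEF1A1*, an elongation factor of translation, was the 15th gene with 6142, 6190 and 6122 TPM. Apart from the translation machinery, the leading genes were *GAPDH* of glycolysis with 4660 TPM, the actin-severing *CFL1* with 3487 TPM, and the chaperones *HSPA8* with 3353 TPM and *HSP90B1* with 3244 TPM. A pair of prostate genes stood among the first 70: *NPY*, a neuropeptide made by prostate luminal cells, with 1814, 2030 and 1908 TPM, and *KLK2* with 1774, 1835 and 1772 TPM. Their ranges overlapped, so neither was ahead of the other beyond the spread.

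**Figure D2:**
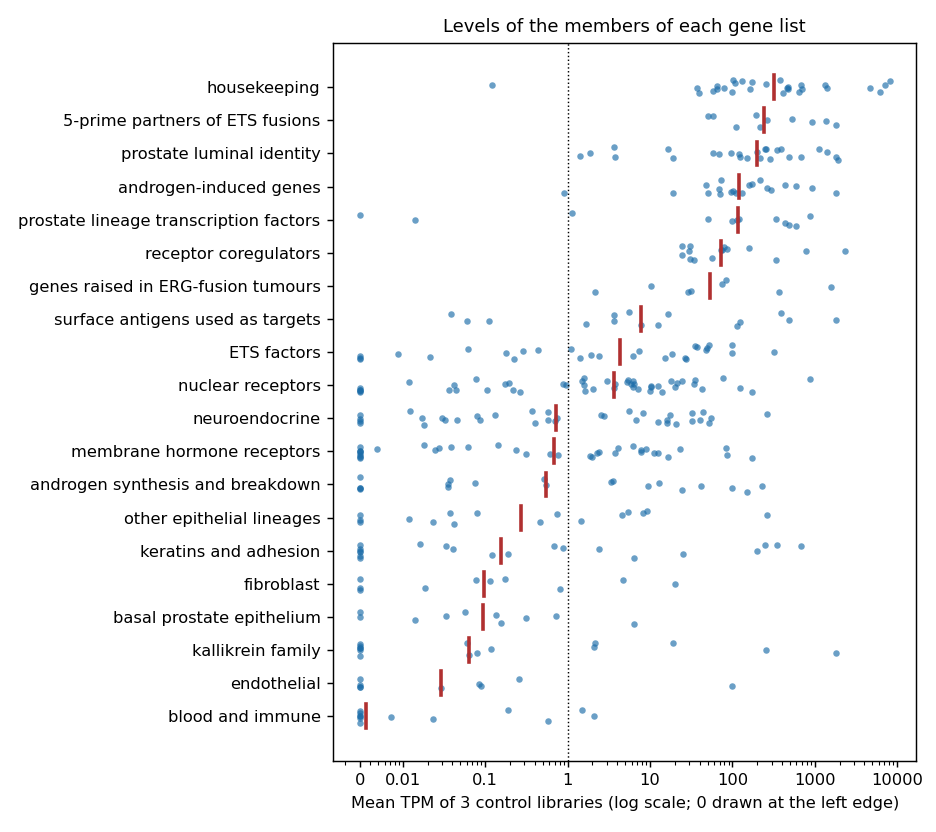
Mean TPM of each member of 20 gene lists on a log scale, with the median of each list as a red bar, 1 TPM as a dotted line and 0 drawn at the left. The housekeeping, prostate luminal and androgen-induced lists have medians of 316, 197 and 121 TPM, whereas the basal, endothelial and immune lists have medians under 0.1 TPM.

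Of 25 genes of prostate luminal identity, 24 were expressed (96.0%, against 58.1% of all genes). Of the 25, 16 exceeded 100 TPM in each library (8.56% over all genes). Their median was 197 TPM, against 4.21 TPM over all 19918 genes. The secreted products came first. After *NPY* and *KLK2* stood *SPON2*, a secreted matrix protein, with 1495, 1447 and 1346 TPM, and *ACPP*, prostatic acid phosphatase, with 1083, 1107 and 1159 TPM. These did not overlap with each other or with *EPCAM*, an epithelial adhesion protein with 686, 663 and 715 TPM. Without division by length the order of *SPON2* and *ACPP* turned, with a ratio of 0.736. Membrane proteins of the luminal cell followed, with a mean of 482 TPM for *FOLH1*, the prostate-specific membrane antigen (PSMA), and 392 TPM for *STEAP1*, a metalloreductase. *TMPRSS2* was 12th in the list, and its 3 values differed by a factor of only 1.01. At the bottom lay *TGM4*, *PSCA*, *RLN2* and *MSMB*, with means between 1.40 and 3.77 TPM. *MSMB*, which encodes an abundant protein of seminal fluid, had 11 counts in all and 1.96, 1.61 and 0.634 TPM, and was the 1 member that missed 1 TPM in a library.

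**Figure D3:**
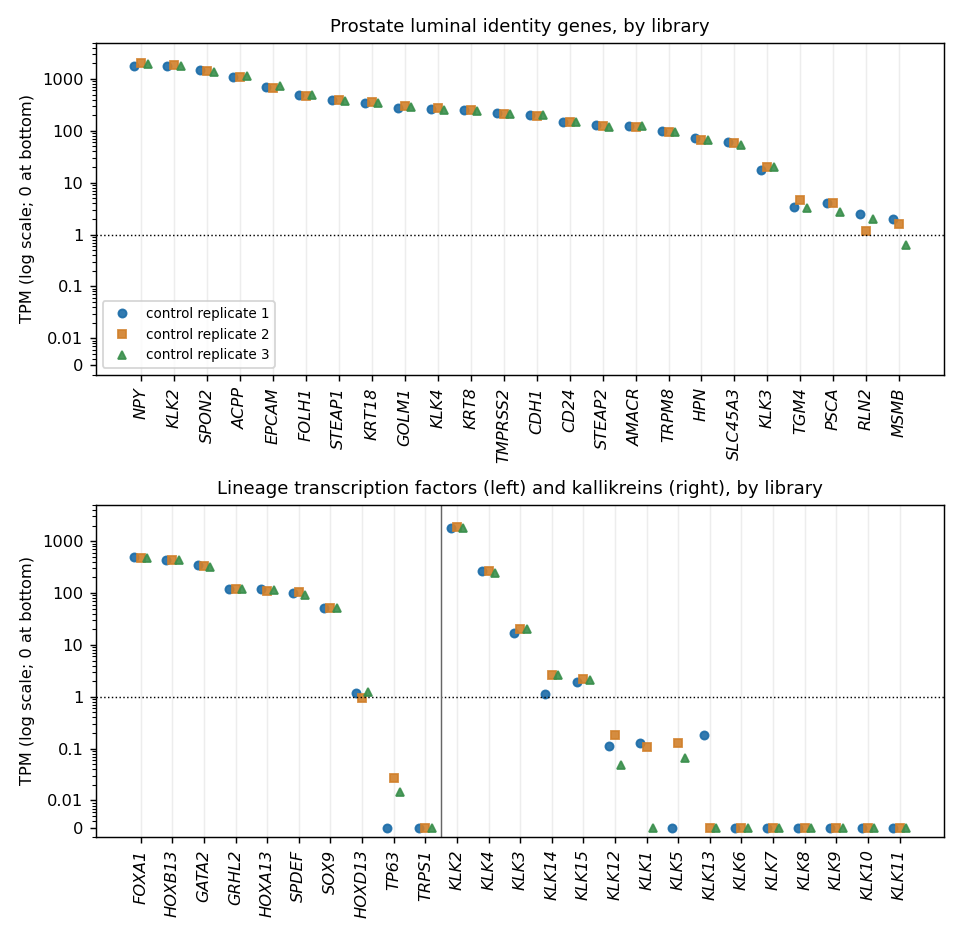
TPM on a log scale in each control library for 24 luminal genes (top), and for 10 lineage transcription factors and 15 kallikreins (bottom). Each symbol is 1 library and values of 0 are drawn at the bottom. The 3 libraries lie close together above about 10 TPM and spread apart at low levels, and *KLK3* lies at 19.2 TPM, well under *KLK2* at 1793 TPM and *KLK4* at 260 TPM.

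To place KLK3 among its relatives, the 15 kallikrein genes, which encode serine proteases and lie together on chromosome 19, were compared per length. Of these, 5 were expressed (33.3%, against 58.1% of all genes), and the family was dominated by 1 member. *KLK2*, which encodes human glandular kallikrein, had 21695, 27334 and 50209 counts. *KLK4*, an enamel and prostate protease, had 263.4, 269.2 and 246.7 TPM. *KLK3* had only 136, 195 and 366 counts. *KLK2* therefore exceeded *KLK3* by 103-, 90.3- and 88.4-fold (mean 93.8 ± 7.81) on the TPM scale, and *KLK4* exceeded it by 13.6-fold (± 1.51). With GENCODE lengths these ratios were 138 and 20.6, and without division by length 146 and 10.8. The order *KLK2*, *KLK4*, *KLK3* was the same in every library with no overlap. *KLK14* and *KLK15* had means of 2.16 and 2.101 TPM and overlapped. The remaining 10 stayed under 0.2 TPM in each library, and *KLK6*, *KLK7*, *KLK8*, *KLK9*, *KLK10* and *KLK11* had no count. The 5 exon blocks of *KLK3* (1906 bases, chr19:50854915-50860764, plus strand, hg38) shared no base with another gene on the same strand, and none of them was found on an alternate contig. Reads of *KLK3* that also align to similar genes on the main chromosomes were not measured. The cause of its low level was not tested.

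As *KLK2* and *KLK3* are neighbours with alike start regions, the 250 bases before each start are shown (RefSeq, GRCh38.p14, plus strand). Capitals mark the single match in each to GNACANNNNGTNCT, a relaxed form of the androgen response element, searched on both strands.
KLK3, chr19:50854665-50854914: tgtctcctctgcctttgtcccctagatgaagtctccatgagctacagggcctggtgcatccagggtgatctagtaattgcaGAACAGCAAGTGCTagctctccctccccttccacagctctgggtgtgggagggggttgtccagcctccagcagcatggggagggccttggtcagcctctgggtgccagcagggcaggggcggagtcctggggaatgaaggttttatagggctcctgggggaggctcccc
KLK2, chr19:50873189-50873438: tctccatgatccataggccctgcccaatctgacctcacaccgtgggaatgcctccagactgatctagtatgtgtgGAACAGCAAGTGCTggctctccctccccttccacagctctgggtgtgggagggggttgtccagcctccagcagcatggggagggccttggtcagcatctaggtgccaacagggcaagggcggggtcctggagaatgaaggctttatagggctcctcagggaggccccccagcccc
Over the whole 300-base windows, which run 50 bases past the start, 245 of 309 aligned positions were identical (79.3%). The matched 14 letters were the same in both genes, GAACAGCAAGTGCT, and began 169 bases before the start of *KLK3* and 175 bases before that of *KLK2*. This motif was in 246 of 35116 RefSeq windows (0.701%). The stricter form GNACANNNTGTNCT was in 70 windows (0.199%) and in neither gene. Whether these letters bear on the level of either gene was not tested. A match is a string of letters and was not measured as a binding site.

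Of 12 transcription factors of the prostate lineage, 9 were expressed (75.0%, against 58.1% of all genes). Of the 12, 7 exceeded 100 TPM in each library (8.56% over all genes), and the median was 117 TPM. The pioneer factor *FOXA1* had 498, 465 and 480 TPM. *HOXB13*, the homeobox factor of the posterior prostate, had 434, 433 and 429 TPM, and *GATA2*, a zinc finger factor, had 353, 333 and 324 TPM. These factors did not overlap and kept the same order in each library. The epithelial factor *GRHL2* (119 TPM) and the posterior *HOXA13* (115 TPM) overlapped, and *SOX9* had 50.7 TPM. In contrast, *TP63*, the defining factor of basal cells, had 2 counts in all, and *TRPS1* had none. With 3 counts as the limit that a count of 0 allows, *TRPS1* lay under 0.0482, 0.0395 and 0.0208 TPM in replicates 1, 2 and 3. Such limits cover counting error only.

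Genes known to be induced by androgen were high as a list, which shares *KLK2*, *KLK3*, *TMPRSS2* and *TRPM8* with the luminal list. Of 20 such genes, 19 were expressed (95.0%, against 58.1% of all genes). Of the 20, 11 exceeded 100 TPM in each library (8.56% over all genes), and the median was 121 TPM. *KLK2* was joined by *NDRG1*, a stress and differentiation gene with 923, 932 and 911 TPM, by *PMEPA1*, an inhibitor of TGF-beta signalling with 452, 445 and 425 TPM, and by *PLPP1*, a lipid phosphatase with 290, 293 and 296 TPM. *FKBP5*, a co-chaperone of steroid receptors, had 50.5, 53.2 and 49.4 TPM. *KLK3* was 19th of the 20, above only *STEAP4* with 0.909 TPM (± 0.126). Of the 12 genes with a RefSeq window, only *KLK2* and *KLK3* held the relaxed motif.

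To examine which hormones the cells could sense, 48 nuclear receptor genes were ranked. These encode transcription factors that bind steroids, thyroid hormone, retinoids or lipids, or have no known ligand. Of these, 31 were expressed (64.6%, against 58.1% of all genes), with a median of 3.69 TPM over the list. The orphan *NR2F6* had 182, 172 and 164 TPM. The orphan *ESRRA*, a regulator of mitochondrial genes, had 129, 128 and 119 TPM. It was followed by *NR2F2* with 76.0 TPM and by *RXRA*, the shared partner of many receptors, with 42.4 TPM. These receptors did not overlap and kept their order in every library, but with GENCODE lengths *NR2F6* fell below *ESRRA*, with a ratio of 0.747. Without division by length *ESRRA* also fell below *NR2F2*, with a ratio of 0.865.

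Receptors for corticosteroids, progesterone and oestrogen were all low. *NR3C2*, the mineralocorticoid receptor, had 7.27, 6.59 and 7.41 TPM. *NR3C1*, the glucocorticoid receptor, had 3.92, 3.52 and 3.76 TPM. *PGR*, the progesterone receptor, had 3.11, 2.88 and 3.01 TPM. These 3 receptors did not overlap on this scale. With GENCODE lengths *NR3C1* had 7.61 TPM and *PGR* 4.85 TPM, and without division by length the order of this pair turned, with a ratio of 0.877. *ESR2*, an oestrogen receptor, had 29 counts in all and a mean of 0.173 TPM. *ESR1*, the main oestrogen receptor, had no count in any library, which allows up to 0.0496, 0.0408 and 0.0214 TPM. *RXRB* had no count either, but 100% of its exon bases were also found on an alternate contig of hg38, as described further on, and the cause of its 0 was not tested. *ESRRB*, *NR1I3* and *NR5A1* also had no count.

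The chaperones and coregulators of these receptors were present without exception. All 15 listed genes were expressed and all exceeded 10 TPM, with a median of 72.7 TPM. Over all genes, 58.1% were expressed and 40.9% exceeded 10 TPM in each library. The chaperones that hold unliganded steroid receptors came first, with 2304, 2386 and 2352 TPM for *HSP90AB1* and 780, 783 and 811 TPM for *HSP90AA1*. The co-chaperone *FKBP4* had 343 TPM and the histone demethylase *KDM1A* had 161 TPM. The p160 coactivators *NCOA1* and *NCOA2* overlapped, with means of 30.2 and 30.98 TPM, and *NCOA3* had 24.3 TPM. The corepressor *NCOR1* had 72.4, 74.7 and 71.1 TPM.

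Of 36 hormone receptors of the cell membrane, 17 were expressed (47.2%, against 58.1% of all genes) and the median was 0.686 TPM. The adiponectin receptor *ADIPOR1* led with 173, 176 and 172 TPM. *IGF1R*, the receptor of insulin-like growth factors, whose antisense transcript is the subject of the study, was second with 87.9, 86.2 and 85.7 TPM and overlapped with *ADIPOR2* at 84.7 TPM (± 3.40). *IGF1R* exceeded the insulin receptor *INSR* (7.69 TPM) by 11.3-fold (± 0.247). The receptors of gonadotropin-releasing hormone (*GNRHR*) and of luteinising hormone (*LHCGR*) had no count in any library.

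Enzymes that make or break down androgens were expressed in part. Of 19, 9 were expressed (47.4%, against 58.1% of all genes) and the median was 0.541 TPM. *HSD17B4*, a peroxisomal dehydrogenase, had 225, 229 and 233 TPM. *AKR1C3*, which turns weak androgens into testosterone, had 151, 154 and 150 TPM, but its close relatives *AKR1C1* and *AKR1C2* make the split of reads among them uncertain. *HSD17B10* had 98.4 TPM. *UGT2B17*, which inactivates androgens, had 41.9 TPM (± 3.004), and *HSD17B6* had 24.3 TPM. The share of *UGT2B15* reads is uncertain too, since 100% of its exon bases were also found on an alternate contig. The first steps of steroid synthesis were near 0, with no count for *CYP11A1* and *HSD3B2* and 2 counts in all for *CYP17A1*.

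The ETS family, transcription factors with a shared DNA-binding domain, supplies the 3′ partners of most prostate cancer fusions. Of 28 members, 16 were expressed (57.1%, against 58.1% of all genes). Over all genes, 8.56% exceeded 100 TPM in each library, and of this family 1 did. That gene was *EHF*, an ETS factor of epithelia, with 316, 313 and 321 TPM. *ERG* followed with 3546 counts in the shallowest library and a mean of 99.3 TPM (± 2.99). *EHF* exceeded *ERG* by 3.19-fold (± 0.0612). *SPDEF*, the prostate-derived ETS factor, had 98.0, 104.2 and 91.8 TPM, so *ERG* and *SPDEF* overlapped and the order of the pair turned in replicate 2. The mean ratio of *ERG* to *SPDEF* was 1.02 on this scale and 1.06 with GENCODE lengths, but 2.80 without division by length. *ELF3*, another epithelial factor, had 51.4 TPM and *ELK1*, a target of MAP kinases, had 49.0 TPM, and these overlapped. *ERG* exceeded *ELF3* by 1.93-fold (± 0.108) without overlap, and by 4.86-fold with GENCODE lengths.

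Of other ETS genes known as fusion partners in prostate cancer, *ELK4* was expressed, with 27.2, 26.4 and 27.8 TPM, whereas *ETV1*, *ETV4*, *ETV5* and *FLI1* were near 0. *ETV1* had 2 counts in all, *ETV4* had 0.263, 0.144 and 0.265 TPM, and *ETV5* had 6 counts. *FLI1*, the closest relative of *ERG*, had no count, which allows up to 0.142, 0.117 and 0.0614 TPM. *ETV3L* and *SPIC* had no count and *SPI1* had 1. *ERG* is normally a gene of endothelial cells, but of 9 endothelial markers it was the only one expressed (11.1%, against 58.1% of all genes). *CDH5*, *CLDN5* and *EMCN* had no count.

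**Figure D4:**
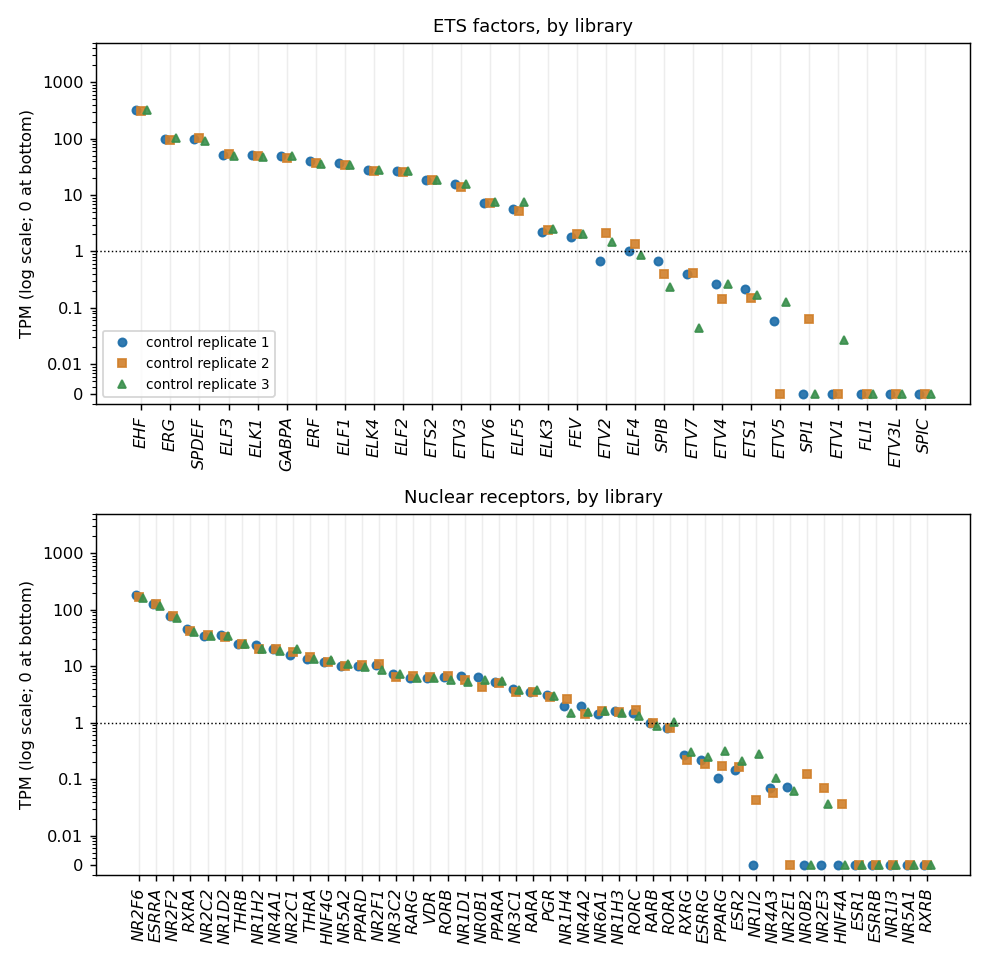
TPM on a log scale in each control library for 28 ETS factors (top) and 47 nuclear receptors (bottom), ordered by mean level, with values of 0 drawn at the bottom. *EHF* leads the ETS factors at 316 TPM, with *ERG* and *SPDEF* overlapping near 99 TPM, and *NR2F6* is the first of the nuclear receptors drawn at 173 TPM, an order with *ESRRA* that turns with GENCODE lengths.

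The genes that donate the 5′ end of ETS fusions were all expressed. All 10 listed partners exceeded 10 TPM in each library and 8 exceeded 100 TPM, with a median of 241 TPM. Over all genes, 40.9% exceeded 10 TPM in each library and 8.56% exceeded 100 TPM. Besides *KLK2* and *NDRG1*, the highest were the RNA-binding gene *HNRNPA2B1* with 1377, 1297 and 1384 TPM and the helicase *DDX5* with 538, 524 and 550 TPM. *TMPRSS2* was 6th, and *SLC45A3*, a prostate membrane transporter, was 9th with 57.9 TPM. In each library *TMPRSS2* was above *ERG*, by 2.162-, 2.225- and 2.096-fold. The size of this difference depended on the length used. It was 1.22-fold with the longest GENCODE transcript as length, under which the mean of *ERG* was 203 TPM, and without division by length the ratio turned to 0.993. These counts are summed over all exons of a gene, so fusion transcripts and normal transcripts of *ERG* or *TMPRSS2* cannot be told apart.

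In the genome, *ERG* (chr21:38367261-38662045) and *TMPRSS2* (chr21:41464551-41508158) lie on the minus strand, 2802505 bases apart. The 17 genes listed between them were examined because the fusion can arise by loss of this interval. Of these, 12 were expressed (70.6%) with a median of 4.43 TPM, and over all 248 genes of chromosome 21 it was 127 (51.2%) with a median of 1.70 TPM. The nucleosome-binding *HMGN1* had 381, 355 and 380 TPM. The proteasome assembly factor *PSMG1* had 109.8, 105.1 and 105.9 TPM. Next came *WRB*, a membrane insertion factor, with 50.9 TPM, *FAM3B* with 32.4 TPM, the bromodomain gene *BRWD1* with 25.01 TPM, and the ETS factor *ETS2* with 18.3 TPM. The neuronal gene *PCP4* had 10.003, 13.9 and 13.3 TPM and the protease *BACE2* had 11.8, 11.5 and 11.6 TPM. *B3GALT5*, *IGSF5*, *LCA5L*, *MX1* and *DSCAM* had means between 1.05 and 4.43 TPM, of which *DSCAM* fell under 1 TPM in replicate 2. *SH3BGR* had 0.843 TPM, *MX2* had 0.173 TPM and *PLAC4* had 1 count in all. The readthrough gene *WRB-SH3BGR* had no count, and 97.0% of its exon bases were shared with other genes on the same strand. Expression of genes in the interval does not show how many copies of it were present.

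**Figure D5:**
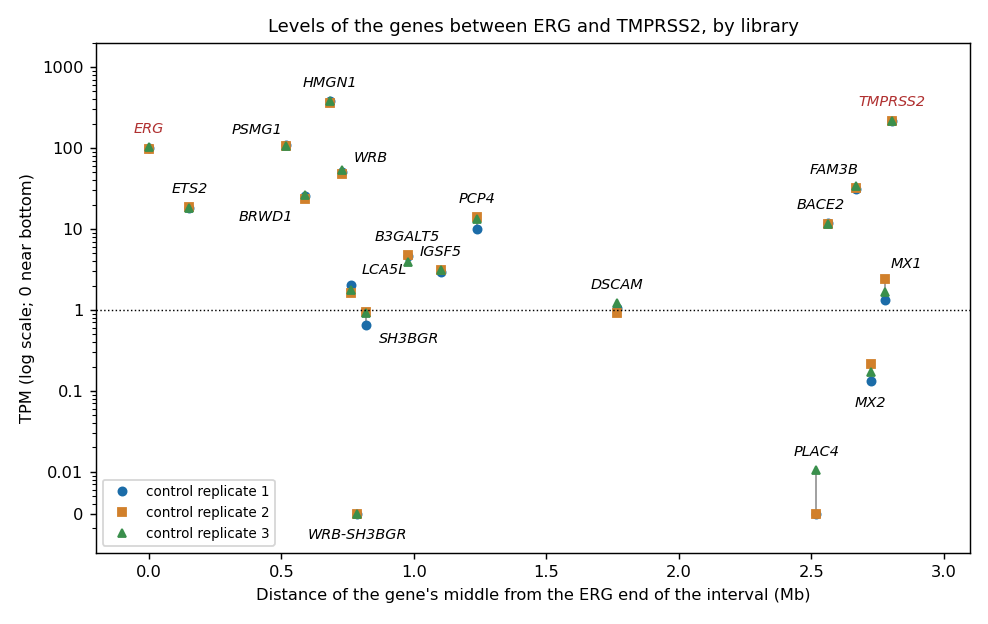
TPM on a log scale in each control library for *ERG*, *TMPRSS2* and the 17 genes between them, against distance in Mb from the end of *ERG* that faces the interval. The flanking pair are drawn at their facing ends, other genes at their middles, and 0 near the bottom. *HMGN1* is the highest at 372 TPM and *WRB-SH3BGR* has no count.

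Of 8 genes reported as raised in tumours with an *ERG* fusion, all were expressed, with a median of 53.0 TPM. Over all genes, 58.1% were expressed and the median was 4.21 TPM. *CRISP3*, a secreted cysteine-rich protein, had 1540, 1527 and 1599 TPM and was ranked 78th of all genes. *PLA1A*, a phospholipase, had 347, 381 and 374 TPM. *ARHGDIB*, a GDP dissociation inhibitor, had 82.9 TPM, *TDRD1*, a germ-line gene, had 74.2 TPM, and *VWA2* had 31.7 TPM. The first 5 kept their order in each library, but without division by length *ARHGDIB* fell below *TDRD1*, with a ratio of 0.325.

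To examine whether a neuroendocrine program was present, 36 genes were read. Of these, 17 were expressed (47.2%) and 12 exceeded 10 TPM, but the median was 0.724 TPM and only *PEG10* exceeded 100 TPM. Over all genes, 58.1% were expressed and 40.9% exceeded 10 TPM in each library, with a median of 4.21 TPM. *PEG10*, a retrotransposon-derived gene, had 267, 270 and 257 TPM. The secretory granule gene *SCG3* had 52.9, 57.1 and 56.9 TPM, and the neuronal ubiquitin hydrolase *UCHL1* overlapped with it at 56.6, 53.5 and 47.5 TPM. *CHGB*, another granule protein, had 46.7, 43.4 and 41.6 TPM and the vesicle protein *SYT4* had 40.1 TPM. *SYP*, which encodes the diagnostic marker synaptophysin, had 31.9, 34.9 and 30.4 TPM. *SYP* was below *CHGB* in each library.

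*INSM1*, a transcription factor of the neuroendocrine state, was below *CHGB* and *SYP* in each library, with 12.7, 12.9 and 11.7 TPM. *REST*, the repressor of neuronal genes, had 16.9, 15.4 and 15.7 TPM, above *INSM1* in each library. *CHGA*, which encodes the diagnostic marker chromogranin A, had no count, but 98.1% of its exon bases were also found on an alternate contig, as were 95.7% of those of *SCG5*. The cause of the 0 of *CHGA* was not tested. Of the genes without such a copy, *NEUROD1*, *GRP* and *PCSK2* had no count. These are bulk libraries, in which few cells with much RNA and many cells with little RNA cannot be told apart.

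Housekeeping genes gave the scale for these levels. Of 28 genes in common use as references, 27 were expressed (96.4%, against 58.1% of all genes). Of the 28, 19 exceeded 100 TPM in each library (8.56% over all genes), and the median was 316 TPM. They spanned a wide range. *RPL13A* had 8041, 8249 and 8008 TPM, *GAPDH* had 4600, 4760 and 4620 TPM, and *ACTB*, cytoplasmic actin, had 1363, 1439 and 1375 TPM. *HPRT1*, a purine salvage enzyme, had 107.8, 103.0 and 113.5 TPM and *TBP*, the TATA-binding protein, had 35.9, 40.3 and 43.5 TPM. *GAPDH* exceeded *ACTB* by 3.35-fold (± 0.0349), or by 5.19-fold with GENCODE lengths, and *TBP* by 117-fold (± 10.9). Set against *TBP*, *KLK2* was 45.2-fold (± 4.33) higher and *ERG* was 2.50-fold (± 0.244) higher, whereas *KLK3* was at 0.482 (± 0.0221) of its level. With GENCODE lengths *ERG* was 4.38-fold higher than *TBP*. Without division by length it was 11.3-fold higher and *KLK2* was 70.2-fold higher.

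The missing housekeeping gene was *RPS18*, a ribosomal protein gene with 1 count over all 3 libraries. Of its exon bases, 91.1% were also found on an alternate-haplotype contig, an extra copy of a variable region that hg38 carries beside the main chromosomes. Read pairs that align to several places were left uncounted by the default of the counting program. Whether the alignment index of the authors held these contigs is not given in the sources used here. Of 735 genes with at least 90% of exon bases on such a contig, 701 were not expressed (95.4%) and 480 had no count. Of the 18806 genes with no such copy, 39.6% were not expressed. The highest of the 735 was *B2M*, the light chain of MHC class I, with 56.5, 53.5 and 63.4 TPM. In a run of 163 genes on the short arm of chromosome 6, which holds the MHC and has 154 such genes, only *BRD2* was expressed, whereas 515 of 866 genes on the rest of the chromosome were (59.5%). Of all 353 listed genes in the files, 10 were in this class, among them *RXRB*, *SCG5*, *CHGA*, *B2M*, *RPS18*, *KRT20*, *KRT23*, *MYH11* and *UGT2B15*. Their low levels moved with the copies, and the cause was not tested.

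The epithelial state of the cells was read from 20 keratins and adhesion genes, of which 7 were expressed. *KRT18* with 342, 352 and 348 TPM and *KRT8* with 249, 254 and 238 TPM, the paired keratins of luminal cells, led after *EPCAM*. *CDH1*, epithelial cadherin, had 199, 192 and 199 TPM, and *KRT19* had 24.9 TPM. In contrast, *VIM*, the intermediate filament of mesenchymal cells, had 2 counts in all, and *CDH2*, neural cadherin, had 0.189 TPM. Of 10 basal markers, *KRT14* alone was expressed, with 8.42, 5.70 and 5.04 TPM, and *KRT5* and *KRT17* had no count. The summed level of the basal markers lay between 6.20 and 10.1 TPM.

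Markers of fibroblasts and of blood and immune cells were low as whole lists. Of 10 fibroblast markers, 2 were expressed and their summed level was 24.7 to 27.1 TPM, most of it from *LUM*, a proteoglycan with 20.2 TPM (± 1.41). *COL1A2* and *THY1* had no count. Of 12 blood and immune markers, 2 were expressed (16.7%, against 58.1% of all genes), *CD68* with 2.09 TPM and *CD14* with 1.48 TPM. Their summed level was 4.12 to 4.77 TPM, *CD3E* and *MS4A1* had no count and *PTPRC* had 4. The list of other epithelial lineages had a summed level of 293 to 299 TPM. Of its 16 genes, 6 were expressed (37.5%, against 58.1% of all genes). Of these, *ALB*, serum albumin of the liver, had 258, 269 and 267 TPM, above *KRT8* in each library. The others lay under 11 TPM in each library, among them *GATA6* (8.29 TPM), *CDX2* (5.48 TPM) and *PAX8* (1.44 TPM), and *HNF4A*, a main regulator of liver genes, had 1 count.

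The spread between the control libraries narrowed with level. The median coefficient of variation was 8.99% for genes with a mean of 1 to 10 TPM, 3.999% for 10 to 100 TPM, 2.72% for 100 to 1000 TPM and 2.41% above. The variation beyond counting noise over 12166 genes, which edgeR names the biological coefficient of variation, was 2.94%. Of 10103 genes with a mean of at least 100 counts, 39 (0.386%) differed by more than 1.5-fold between the highest and lowest library. The median of this ratio over the 10103 genes was 1.08. For 14 markers of lineage, fusion, neuroendocrine cells and housekeeping it was 1.01 to 1.21, with *TBP* and *KLK3* (1.18) the widest. The widest of all were *PUF60* (3.94-fold), *EIF3CL* (3.05-fold), *TUBA1A* (2.47-fold), *PDXDC1* (2.45-fold), *RAD17* (2.25-fold) and *EIF3C* (2.04-fold). They were followed by *BRD2*, *MCOLN2*, *IFNGR2* and *CKMT1B*, with 1.83- to 1.97-fold. Of the 39 genes, 9 had at least 50% of their exon bases on an alternate contig, and *EIF3C* and *EIF3CL* are near-identical copies of each other. Over all 19918 genes, 110 had 50% to 90% of these bases on such a contig and 735 had at least 90%. The share among the 10103 genes was not counted, and the cause of the wide ratios was not tested.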

How the data were processed

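RNA-seq counts of the 3 control libraries were read, and the 6 knockdown libraries of the other groups were not used. Per the file headers, the authors made the deposited counts, raw whole numbers of read pairs per gene symbol, with featureCounts 1.5.2 over exons on the reverse strand. The deposited exon length of each gene comes from the same table. The submitters' processing notes name HISAT2 2.1.0 and hg38. The headers name a RefSeq annotation whereas the study's methods name GENCODE, and the labels and methods name different RNA extraction kits. Listed non-coding RNAs of the prostate were not analysed here, and some listed genes are counted but not reported here.

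TPM were computed in Python 3.11.15 with pandas 2.3.3, with no pseudocount and no filter, and genes ranked by mean. Named are the first 20 genes in ranges or by example, the highest 5 members and fixed markers of each list, genes between *ERG* and *TMPRSS2*, and the 10 widest ratios, and further members were named where counted or for their role. Members and lists were chosen with earlier results of these data known. The dispersion came from edgeR 4.0.16 in R 4.3.3, tested on simulated data. Exon blocks of at least 60 bases were aligned to 261 alternate contigs with minimap2 2.31 at 98% identity or more. Alternatives were TMM and DESeq2 1.42.0 factors, CPM, GENCODE version 44 lengths, filters, thinning, other thresholds and each library left out. Pairs of libraries differed beyond counting noise (chi-square per degree of freedom 1.69 to 2.45), so none was counted as a duplicate.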

Additional observations from a re-analysis of the deposited data

How the results depend on the processing

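Of 284 recomputed counts over 22 results and 13 settings, 10 moved by more than 1.5 times. Without division by length (CPM), 1021 genes held 50% of the total in place of 398, the basal list had 2 expressed members in place of 1, and the immune list 1 in place of 2. With the length of the longest GENCODE transcript, 617 genes held 50%. At 5 TPM the kallikreins had 3 expressed members, the membrane receptors 11, other epithelial lineages 3, fibroblast markers 1 and immune markers 0. At 0.5 TPM the basal list had 2. No count moved under TMM or DESeq2 factors, filters, thinning, or the added setting without genes on alternate contigs, which was chosen after seeing the data. The number of expressed genes lay between 9496 at 5 TPM and 12209 at 0.5 TPM. With each library left out it was 11635 to 11651, and 394 to 402 genes held 50%. *EHF* and *KLK2* stayed first and *KLK3* the third of their families under every setting that changes levels, which the other TPM thresholds do not, with *KLK2* over *KLK3* between 89.4 and 146. Levels of single genes depended on the length used, and among the pairs of genes recomputed, turned orders, and printed ratios that moved by over 1.5 times, are given beside the values above. *ERG* was second among ETS factors, but the third without control replicate 3. Depth limits low genes: a count of 0 in the shallowest library allows 1.34 TPM for the short *RPS18*. No paired analysis was possible because 1 group was described and no test was run.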

Other observations

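Cell surface proteins used as targets in prostate or other cancers differed widely in level. Of 15 genes, 12 were expressed (80.0%, against 58.1% of all genes) and 5 exceeded 100 TPM in each library. *FOLH1* had 501, 466 and 481 TPM, and *STEAP1* 401, 399 and 375 TPM. *STEAP2* (124 TPM) and the immune ligand *CD276* (114 TPM) overlapped. The neuroendocrine antigen *DLL3* had 7.002, 4.42 and 5.52 TPM. *SSTR2*, the somatostatin receptor used for imaging, had 2 counts in all.

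Among 85 genes with numbered ribosomal protein symbols, 8 had a mean under 10 TPM. Of these, 3 had at least 90% of their exon bases on an alternate contig of hg38, among them *RPS18* and *RPS9* with means of 0.122 and 4.33 TPM. Over all 19918 genes, 735 were in this class. Of the others under 10 TPM, *RPL36A* had 2.06% of its exon bases on such a contig, and *RPL39L*, *RPL10L*, *RPL3L* and *RPS4Y2* had 0%. The cause of these low levels was not tested.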
